A study of Mus musculus with 6 samples.

Results

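The simple epithelial keratins are the intermediate filament proteins of single-layered epithelia, and 6 of their genes (Krt7, Krt8, Krt18, Krt19, Krt20 and Krt23) were followed in mouse liver after surgery on the portal vein. They were taken by gene name, through the RefSeq accession of each probe, with every probe kept. Each had 1 probe of the 55681 that were not controls, and the 6 stand among 53 keratin genes and 20018 named genes on the arrays. All mice were male C57BL/6J. PVBL mice had the portal vein's left branch ligated, and 3 days later their right lobe was collected as regenerating liver. Sham mice had a sham operation, with the right lobe collected after the same 3 days. RNA of 3 PVBL and 3 sham samples was hybridised to 1 single-colour (Cy3) Agilent array each. The labels do not say that each sample came from a separate animal, so the spread behind each p-value may be technical in part.

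Keratin filaments are built from pairs, 1 type I and 1 type II protein in equal amounts. Krt8 (type II) and Krt18 (type I) form the pair of hepatocytes, where they protect the cell against mechanical and toxic stress. Bile duct cells make the same pair and add Krt7 (type II) and Krt19 (type I). Krt20 and Krt23 are also type I; Krt20 is known from intestinal epithelium, and Krt23 is known as a keratin whose transcript rises in stressed or injured mouse liver.

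Between 48.0% and 53.6% of the probes on an array were well above background by the scanner's own flag. No spot was saturated, and the 75th percentile of signal was 331 to 407 units for PVBL and 203 to 315 units for sham. Levels are given below as multiples of each array's 75th percentile, or as log2 of that multiple, and they are not compared between probes. The sham arrays lay in row 1 and the PVBL arrays in row 2 of 1 slide, so the row and the surgery cannot be told apart. All 16 hepatocyte markers listed, albumin (Alb) among them, were tested, so liver transcripts were measured in the labelled tissue. In bulk tissue a change in the number of cells of a type and a change in RNA per cell cannot be told apart, which holds for every keratin below.

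Transcripts of Krt8, Krt18, Krt7, Krt19 and Krt23 rose in PVBL liver, and Krt20 could not be tested. Krt23 was 15.1-fold higher, Krt8 4.49-fold, Krt18 3.40-fold, Krt19 2.87-fold and Krt7 2.72-fold higher. In limma with Benjamini-Hochberg adjustment over the 27909 tested probes, these 5 members passed the threshold of 0.05, where 11.3% of all tested probes were called higher (3142 probes; 1962 without sham 1), 19.3% lower and 30.5% either way. All 5 were also at least 2-fold higher, as were 5.35% of all tested probes. On all 5 of these probes every PVBL array lay above every sham array, as on 17.6% of all tested probes (50.7% had groups apart in either direction). Krt7 passed the filter on dim probes only through its PVBL arrays, with 2 of 3 sham arrays well above background, so its call is no independent support. The median log2 difference over all tested probes was -0.19. With spike-in scaling this median was 0.24, and the split of calls, 3142 higher and 5374 lower, became 2544 higher and 436 lower (3990 and 3289 with median scaling). The 5 keratin differences stayed positive and called under quantile, median and spike-in scaling.

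**Figure D1:**
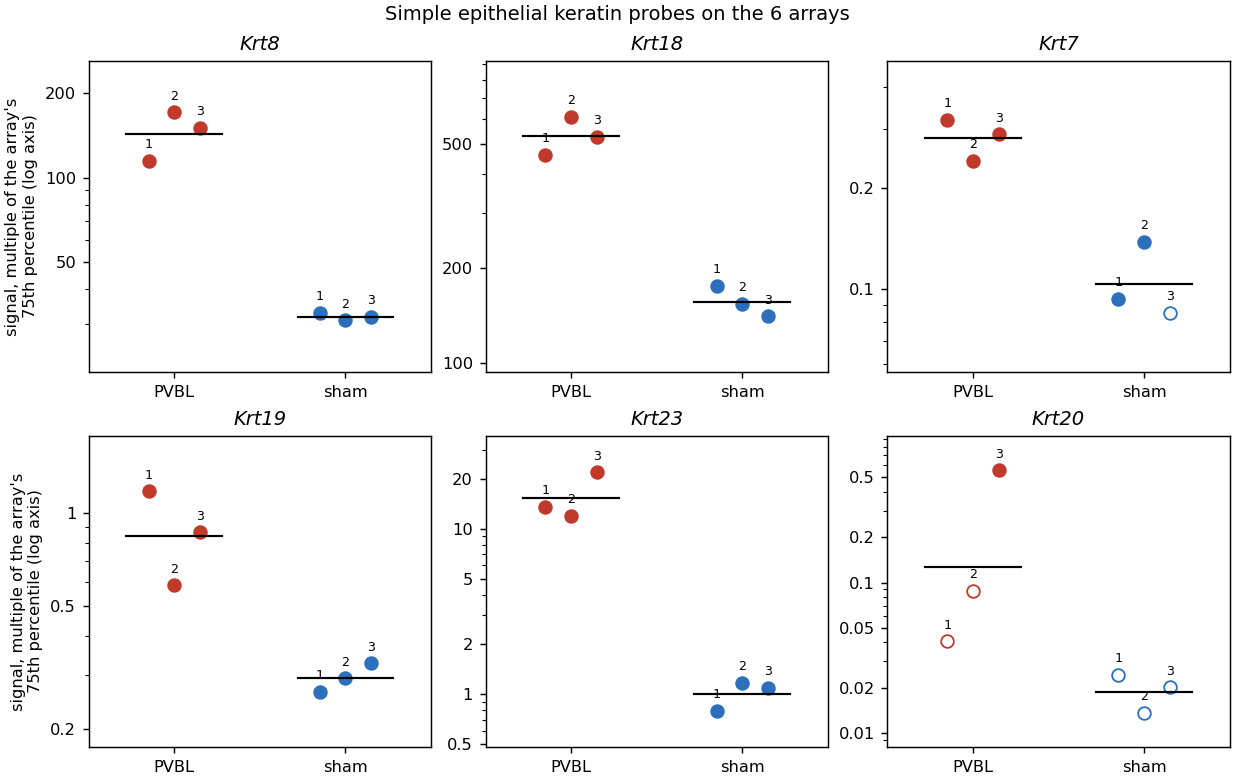
Signal of each keratin probe on the 6 arrays, as a multiple of the array's 75th percentile on a log axis with its own range in each panel; numbers mark the replicate, open circles a spot not well above background, and bars the mean of the log2 levels. PVBL points lie above the sham points in every panel, with Krt20 above background on PVBL 3 alone.

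The hepatocyte pair, Krt8 and Krt18, rose together. The Krt8 probe gave 115, 171 and 151 times the 75th percentile on PVBL 1, PVBL 2 and PVBL 3, against 33.0, 30.9 and 31.9 times on sham 1, sham 2 and sham 3. The sham arrays lay within 0.093 of each other on the log2 scale, PVBL 1 was the lowest of its group and the groups did not overlap. The log2 level was 7.16 ± 0.29 in PVBL and 5.0 ± 0.05 in sham (SD, n = 3 each), a difference of 2.17 ± 0.17 (SE, limma adjusted p = 0.000299). Among the 27909 tested probes this was the 504th largest difference upward.

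Krt18, the type I partner, gave 463, 612 and 529 times the 75th percentile on PVBL 1 to 3, against 176, 154 and 141 times on sham 1 to 3. PVBL 1 was again the lowest and PVBL 2 the highest of the PVBL arrays, as for Krt8. The log2 level was 9.05 ± 0.20 in PVBL and 7.29 ± 0.16 in sham (SD, n = 3 each), a difference of 1.77 ± 0.16 (SE, limma adjusted p = 0.000543).

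Krt8 and Krt18 neighbour each other on chromosome 15 in the RefSeq gene table, with no protein-coding gene between them. The neighbours were looked up after the values were seen. Beyond Krt18 lie Eif4b, a translation initiation factor gene (log2 difference -0.45 ± 0.22, adjusted p = 0.156), and Tns2, a tensin gene, which fell by 0.69 (adjusted p = 0.0240). On the other side Krt78 and Krt4 were not tested, and Krt79 rose by 0.89 on the log2 scale. The 250 bases before the start of each gene are shown for Krt8 and Krt18, which rose side by side, and for Krt7 and Krt23, the smallest and the largest of the called differences. Sequences are from RefSeq promoters (GRCm38.p6), which matched 5 of the 6 genes; the table gave none for Krt19. They run 5′ to 3′ towards the start site, and capitals mark matches to the motifs named after them.
Krt8, chr15:102004343-102004592, minus strand: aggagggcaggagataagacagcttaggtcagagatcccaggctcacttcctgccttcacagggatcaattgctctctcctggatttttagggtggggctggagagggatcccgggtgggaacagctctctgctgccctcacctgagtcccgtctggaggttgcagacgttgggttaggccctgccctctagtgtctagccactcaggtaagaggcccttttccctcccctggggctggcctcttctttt
Krt18, chr15:102027966-102028215, plus strand: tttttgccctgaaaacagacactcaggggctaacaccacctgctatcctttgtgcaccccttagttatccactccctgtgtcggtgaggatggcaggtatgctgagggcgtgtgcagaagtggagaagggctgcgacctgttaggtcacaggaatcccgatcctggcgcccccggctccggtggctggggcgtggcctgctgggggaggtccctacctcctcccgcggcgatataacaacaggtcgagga
Krt7, chr15:101412153-101412402, plus strand: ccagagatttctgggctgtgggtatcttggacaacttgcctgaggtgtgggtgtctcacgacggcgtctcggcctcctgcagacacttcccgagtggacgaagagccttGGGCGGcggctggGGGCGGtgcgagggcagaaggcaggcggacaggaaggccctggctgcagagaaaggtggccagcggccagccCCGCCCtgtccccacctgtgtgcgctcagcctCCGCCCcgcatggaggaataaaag
Krt23, chr11:99493121-99493370, minus strand: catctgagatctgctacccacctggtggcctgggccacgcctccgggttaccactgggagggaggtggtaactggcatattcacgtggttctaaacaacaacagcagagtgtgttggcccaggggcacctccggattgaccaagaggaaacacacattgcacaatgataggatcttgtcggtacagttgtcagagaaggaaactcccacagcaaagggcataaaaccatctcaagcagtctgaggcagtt

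A motif was searched on both strands of the window. The TATA box was searched as TATAAA. The GC box was searched as GGGCGG. The AP-1 motif was searched as TGANTCA. The TEAD motif was searched as GGAATG. The CCAAT box was searched by those letters. Krt7 held 4 GC box matches, beginning 141, 128, 56 and 24 bases before the start, the last 2 on the minus strand, and 32.7% of 32851 promoters held at least 1. Krt8, Krt18 and Krt23 held no match to any of the 5 motifs in this window. Krt20, whose sequence is not printed, held a TATA box match, as did 12.4% of all promoters, and 3 TEAD matches, 2 of which overlap by 1 base, where 12.6% held any. AP-1 matches occurred in 6.75% and CCAAT matches in 33.8% of all promoters, and in none of the 5 keratins. The GC content of the window was 58.0% for Krt8, 60.4% for Krt18, 66.0% for Krt7, 52.8% for Krt23 and 48% for Krt20. The median over all promoters was 52.4%.

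The biliary keratins, Krt19 and Krt7, rose as well. The Krt19 probe gave 1.18, 0.583 and 0.867 times the 75th percentile on PVBL 1 to 3, against 0.264, 0.292 and 0.326 times on sham 1 to 3. The PVBL arrays spread over 1.01 on the log2 scale, with PVBL 1 highest and PVBL 2 lowest, and did not overlap with sham. The log2 level was -0.25 ± 0.51 in PVBL and -1.77 ± 0.15 in sham (SD, n = 3 each), a difference of 1.52 ± 0.25 (SE, limma adjusted p = 0.00636).

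Krt7, the type II keratin of bile ducts, gave 0.319, 0.241 and 0.289 times the 75th percentile on PVBL 1 to 3, against 0.0938, 0.139 and 0.0850 times on sham 1 to 3, the last of which was not well above background. PVBL 1 was again the highest and PVBL 2 the lowest of the PVBL arrays, the reverse of Krt8 and Krt18. The log2 level was -1.83 ± 0.21 in PVBL and -3.27 ± 0.37 in sham (SD, n = 3 each), a difference of 1.44 ± 0.22 (SE, limma adjusted p = 0.00422). With normexp background correction, which adds 50 units to every signal, the difference was 0.37 and the call was lost (adjusted p = 0.0517). The Krt7 signals were 79.6 to 130 units on the PVBL arrays and 17.3 to 41.7 units on the sham arrays, so an added 50 units shrinks this fold by construction.

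Other biliary genes moved both ways. Of 20 biliary markers 16 were tested, and 6 rose and 3 fell, with a median log2 difference of 0.53, against -0.10 over all tested genes. Over all tested genes, with 1 probe per gene, 14.4% were called higher and 16.8% lower. Leaving out 1 array at a time gave 4 biliary markers higher without sham 1 and 8 without PVBL 2, and from 0 (without sham 1) to 2 (without PVBL 3) lower, 1 without each other array. With quantile or median scaling 1 fell, and with spike-in scaling none. Cftr, 1 of the falls, passed the filter only through its sham arrays, with 1 of 3 PVBL arrays well above background. The 3 largest rises were in Prom1, a membrane protein of progenitor cells (7.90-fold), Spp1, osteopontin (5.51-fold), and Cd24a, a surface glycoprotein (2.63-fold). Sox9, the transcription factor gene that defines bile duct cells, did not pass the threshold (log2 difference 0.62 ± 0.24, adjusted p = 0.0899). Epcam, another defining marker, was well above background on 2 of 3 arrays in each group, was not tested, and gave 0.0629 to 0.163 times the 75th percentile in PVBL and 0.0636 to 0.112 times in sham. The summed signal of the 16 tested markers was 91.6 to 139 in PVBL and 103 to 108 in sham, a sum to which bright probes add most: the water channel gene Aqp1 alone gave 31.4 to 70.0 in PVBL and 51.4 to 58.0 in sham. The part of biliary cells in the Krt7 and Krt19 differences was not tested.

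Hepatocyte markers fell or did not pass the test, where 14.4% of all tested genes were called higher and 16.8% lower. None of the 16 tested rose (0 at an unadjusted p under 0.05) and 6 fell, with a median of -0.46 (3 fell with quantile scaling, none with spike-in scaling, where the median was -0.03). Pck1, of gluconeogenesis, and Fga, a fibrinogen chain gene, fell by 1.07 and 0.87 on the log2 scale. The count of falls was 1, 0 and 2 without sham 1, sham 2 and sham 3. Without those arrays Pck1 was at -0.97, -1.12 and -1.12 and not called, and Fga at -0.79 and -0.84 and not called without sham 1 or sham 2. Cyp2e1, a pericentral cytochrome, fell by 1.07, and was at -1.13, -1.13 and -0.95 and not called without sham 1, sham 2 and sham 3. The summed signal of these markers was 6069 to 8074 in PVBL and 9435 to 10347 in sham.

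Markers of other epithelia were counted as well, where 14.4% of all tested genes were called higher and 16.8% lower. Of 7 mesothelial markers on the arrays 4 were tested and none was called in limma (0 higher and 0 lower at an unadjusted p under 0.05; 1 higher with spike-in scaling). Their median was 0.39, and -0.07 with normexp. Of those not tested, Lrrn4 was above background on 2 of 3 PVBL and 0 of 3 sham arrays. Lrrn4 was at least 1.63-fold higher (1.06-fold with normexp), with groups that overlapped. Upk1b, above background on 1 PVBL and 0 sham arrays, was at least 1.11-fold higher (0.95-fold with normexp). Bnc1 went the other way, above background on 1 sham and 0 PVBL arrays. Msln, mesothelin, was at 2.25, 1.69 and 0.637 times the 75th percentile on PVBL 1 to 3 and 0.948, 1.03 and 0.295 times on sham 1 to 3, so the groups overlapped. Wt1, a transcription factor gene of mesothelium, had a log2 difference of 0.11 ± 0.25 (adjusted p = 0.761). The summed mesothelial signal was 0.866 to 2.81 in PVBL and 0.452 to 1.5 in sham, and the part of mesothelium in the keratin differences was not tested. Of 8 intestinal markers 4 were tested. None rose in limma (0 at an unadjusted p under 0.05, and 1 without sham 3). Cdx1, an intestinal homeobox gene below background on all PVBL arrays, was at least 1.53-fold lower and passed the filter only through its sham arrays. The other 3 tested did not pass: Tff3 (log2 difference 0.55 ± 0.48), Fabp2 (0.04 ± 0.23) and Lgals4 (-0.40 ± 0.34). Vil1, villin, was above background on 2 of 3 PVBL and 1 of 3 sham arrays and was not tested. Its log2 difference was 1.33 (0.01 with normexp), with groups that overlapped. Cdx2 and Muc2 stayed below the flag on all 6 arrays. Of 9 pancreatic acinar markers 5 were tested. None rose in limma (0 at an unadjusted p under 0.05) and Ctrb1, a chymotrypsinogen gene, fell by 0.75 on the log2 scale. Neither fall was called with spike-in scaling. Among 10 squamous markers 6 were tested and 2 rose, Sprr1a, of the cornified envelope (4.04-fold), and Trp63, the p63 factor of basal cells (2.61-fold), while the basal keratins Krt5 (log2 difference -0.11 ± 0.19) and Krt14 (-0.28 ± 0.16) did not pass and Krt1, Krt15 and Krt17 were below background on all arrays.

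Krt23 had the largest difference of the 6 genes that was tested. Its probe gave 13.5, 11.9 and 21.9 times the 75th percentile on PVBL 1 to 3, against 0.796, 1.18 and 1.10 times on sham 1 to 3. The groups did not overlap, and PVBL 3 was the highest of its group. The log2 level was 3.93 ± 0.46 in PVBL and 0.01 ± 0.30 in sham (SD, n = 3 each), a difference of 3.91 ± 0.26 (SE, limma adjusted p = 0.000144). It ranked 191st upward among the 27909 tested probes, and leaving out any 1 array gave differences from 3.65 to 4.09, all called.

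Krt20, the neighbour of Krt23 on chromosome 11, was seen on 1 array. Its probe gave 0.0407, 0.0885 and 0.557 times the 75th percentile on PVBL 1 to 3, against 0.0244, 0.0136 and 0.0201 times on sham 1 to 3. It was well above background on PVBL 3 and on no other array, so it did not pass the filter. On that array it reached 190 units, against 4.09 to 29.2 units on the other 5 arrays. Set against the lowest signal that counted as well above background on the sham arrays, the PVBL mean was at least 2.27-fold higher, a bound that rests on PVBL 3. Without a filter on dim probes the log2 difference was 2.74 and did not pass (adjusted p = 0.134), and it was 1.67 without PVBL 3, where no array was above background.

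The members were then set against each other within each array, which removes any scaling by a constant factor per array. In 6 such pairs of genes the smallest two-sided p of the exact permutation test over 3 against 3 arrays is 0.1, and adjusted over the 6 pairs the p-values ran from 0.2 to 0.8. Krt23 changed by 1.75 more than Krt8 on the log2 scale (0.543 SD over PVBL and 0.346 over sham arrays, n = 3 each, exact p = 0.1), and by 2.39 more than Krt19 (exact p = 0.1). For both pairs every PVBL array lay above every sham array. Krt18 changed by 0.40 less than Krt8 (difference -0.40, SD 0.107 in PVBL and 0.139 in sham, exact p = 0.1), with no overlap between the groups, so the type I member of the hepatocyte pair had the smaller rise on its probe. With normexp this was -0.33 (exact p = 0.2). Quantile scaling, which is no constant factor per array, was not run on the pairs. With it the log2 differences were 2.35 for Krt8 and 2.08 for Krt18, against 2.17 and 1.77 in the main fit.

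With the biliary keratins set against Krt8 in the same way, the PVBL and sham arrays overlapped. The difference of Krt19 from Krt8 was 0.16, -1.42 and -0.67 on PVBL 1 to 3 and -0.20, 0.04 and 0.15 on sham 1 to 3, each relative to the sham mean, with a mean change of -0.65 (exact p = 0.4). It was -1.05 without PVBL 1, -0.26 without PVBL 2 and -1.14 with normexp (exact p = 0.1, the smallest possible). That of Krt7 from Krt8 was -0.22, -1.20 and -0.75 on PVBL 1 to 3 and -0.19, 0.47 and -0.28 on sham 1 to 3, with a mean change of -0.73 (exact p = 0.2). It was -0.49 without PVBL 2 or sham 2 and -1.83 with normexp (exact p = 0.1). Krt7 and Krt19 differed in change by -0.08 (exact p = 0.8), and by -0.70 with normexp (exact p = 0.1). These p-values do not show equal changes, since no pair could reach an exact p under 0.1 with so few arrays. The PVBL arrays alone also spread over more than 1 log2 unit for Krt19 minus Krt8.

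**Figure D2:**
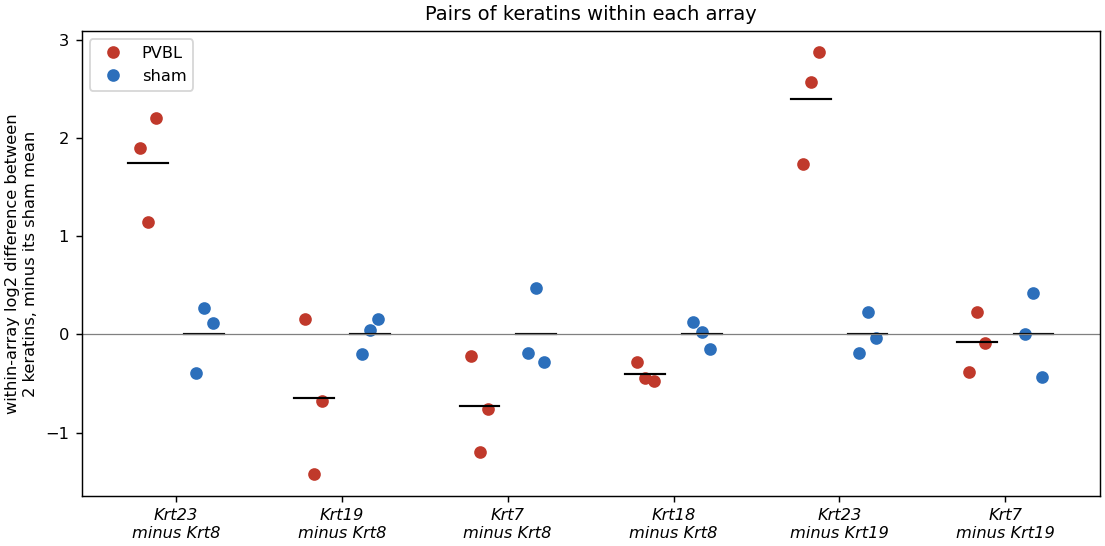
Log2 difference between 2 keratins within each array, minus its mean over the sham arrays, for 6 pairs; points are arrays (PVBL left, sham right of each pair) and bars group means. PVBL means are 1.75 and 2.39 where Krt23 is set against Krt8 and Krt19, and -0.40 for Krt18 against Krt8, without overlap in these 3 pairs.

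The other 47 keratin genes on the arrays moved both ways, where 14.4% of all tested genes were called higher and 16.8% lower. For 26 of them the brightest probe was below the background flag throughout, 16 were tested, and 4 of these rose and 3 fell, with a median of -0.28 (0.15 with spike-in scaling, where 5 rose and none fell; 1 fell with median scaling and none without sham 1, sham 2 or sham 3). Krt31, a type I keratin of hair, gave 23.6, 24.6 and 42.3 times the 75th percentile on PVBL 1 to 3, against 1.58, 1.69 and 1.12 times on sham 1 to 3. This was a 20.2-fold rise (log2 difference 4.33 ± 0.27, adjusted p = 0.000107). Krt13, a type I keratin of mucosa that lies near Krt19 on chromosome 11, was 4.36-fold higher, with 1.60 to 2.15 times the 75th percentile in PVBL and 0.343 to 0.471 times in sham. Krt81, a type II hair keratin with close copies among its neighbours, was 4.01-fold higher (2.28-fold with normexp). Cross-hybridisation was not tested for its probe or for that of any other keratin, Krt31 among them.

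Smaller changes among the other keratins were less firm. Krt79, of hair canal and sebaceous duct, rose by 0.89 ± 0.22 (SE), and was not called without PVBL 1, PVBL 3, sham 1 or sham 3 (0.87, 0.74, 0.94 and 0.71). Krt9, of palm and sole skin, fell by 0.98, and was not called without PVBL 2, sham 1, sham 2 or sham 3 (-1.05, -1.02, -1.01 and -0.91). Krt73, of the hair root sheath, fell by 0.87, and was not called without sham 1, sham 2 or sham 3 (-0.88, -0.85 and -0.87). Krt16, an epidermal keratin of wounded skin, fell by 0.52 and was called with none of the 6 arrays left out (-0.60 to -0.41). With spike-in scaling none of these 3 falls was called, and they were at -0.55, -0.44 and -0.09.

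**Figure D3:**
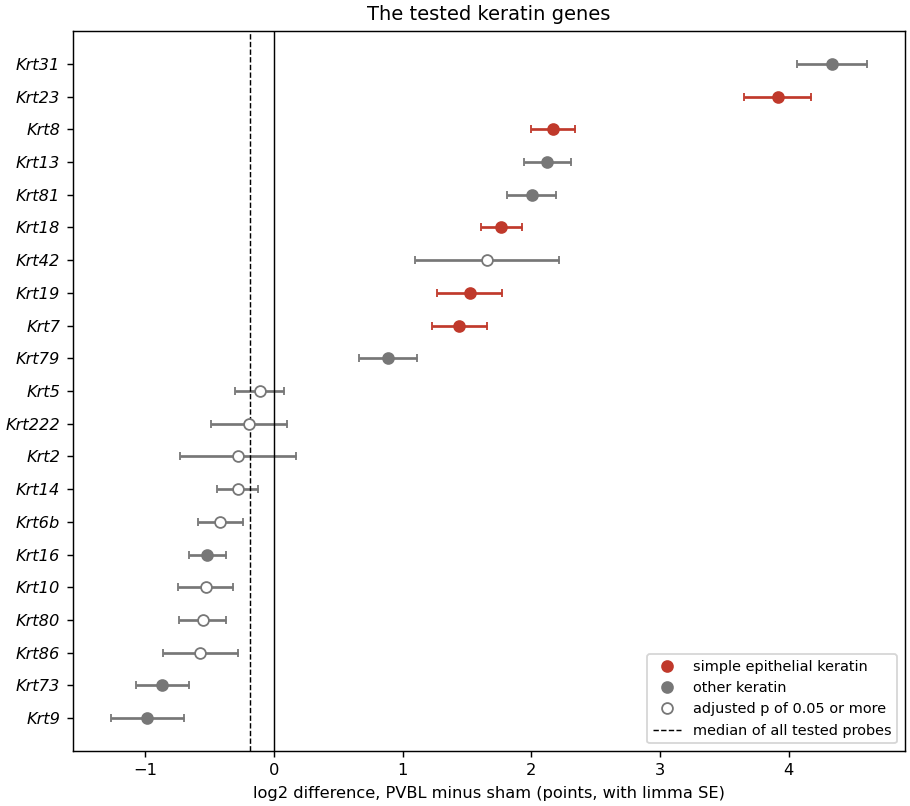
Log2 difference (PVBL minus sham) with limma's SE for the 21 tested keratin genes; red marks the simple epithelial keratins, filled points an adjusted p under 0.05, and the dashed line the median of all tested probes at -0.19. The 5 tested simple epithelial keratins lie between 1.44 and 3.91, and Krt31 at 4.33.

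Genes that anchor keratin filaments rose in part, where 14.4% of all tested genes were called higher and 16.8% lower. Of 15 tested genes of desmosomes and filament linkers 6 rose and none fell in limma (1 lower at an unadjusted p under 0.05; 1 fell without PVBL 3), with a median of 0.18. The count of rises was 4 without PVBL 1, sham 1 or sham 3 and with spike-in scaling. Pkp1, the desmosomal plakophilin 1, was below background on all sham arrays and at least 6.87-fold higher (2.12-fold with normexp). It gave 0.470, 0.289 and 0.412 times the 75th percentile on PVBL 1 to 3 and 0.0140 to 0.0268 times in sham. Pkp1 passed the filter on dim probes only through its PVBL arrays, so its call is no independent support. Ppl, periplakin, was 4.68-fold and Eppk1, epiplakin, which binds keratin filaments, 2.23-fold higher. The main desmosomal plaque gene Dsp (log2 difference 0.18 ± 0.21) and the linker gene Plec, plectin (0.12 ± 0.23), did not pass the threshold.

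The other intermediate filament genes moved both ways, 4 of 11 tested rising and 3 falling (1 falling with median or spike-in scaling), with a median of -0.01 that was above 0 with quantile, median and spike-in scaling. The count of falls ran from 1 without sham 1 or sham 2 to 4 without PVBL 3. Over all tested genes 14.4% were called higher and 16.8% lower. Lmnb1 and Lmna, lamins of the nuclear envelope, were 4.12-fold and 3.18-fold higher. Nefh, a neurofilament gene below background on all PVBL arrays, was at least 2.26-fold lower (1.70-fold with normexp). Nefh passed the filter on dim probes only through its sham arrays, so its call is no independent support.

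Among the 7 genes of 14-3-3 proteins, which bind phosphorylated Krt18, 3 rose and 1 fell, with a median of 0.42; 5 rose with quantile scaling, 2 with spike-in scaling, 4 without PVBL 3 and 2 without any other array. Ywhah was 2.86-fold higher, with 55.2, 69.1 and 62.4 times the 75th percentile on PVBL 1 to 3 and 21.8, 21.3 and 21.9 times on sham 1 to 3. Ywhaz was 1.81-fold higher and called in all 3 of its probes. Sfn, the epithelial 14-3-3 sigma, fell by 1.17 and was not called with spike-in scaling. Over all tested genes 14.4% were called higher and 16.8% lower.

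Over all tested genes 14.4% were called higher and 16.8% lower. Of 16 tested genes of chaperones and keratin aggregates 3 rose (5 with median scaling), with a median of 0.11. None fell in limma (0 at an unadjusted p under 0.05). The rises were in Tgm2, a transglutaminase that cross-links keratins (2.65-fold), Hsp90aa1, a heat shock protein gene (1.75-fold), and Bag3, a co-chaperone (1.73-fold). The call of Hsp90aa1 was lost without PVBL 1, PVBL 2, sham 2 or sham 3 (0.90, 0.62, 0.67 and 0.79), and 2 genes rose without PVBL 1, PVBL 2 or sham 3. Sqstm1, the p62 protein of keratin aggregates, had a log2 difference of 0.46 ± 0.16 (adjusted p = 0.0707). Of 12 tested transcription regulators of epithelia 3 rose and 1 fell (none fell with spike-in scaling), with a median of 0.29. The AP-1 genes Jun and Fos were 4.13-fold and 4.72-fold higher, and Ets2 was 2.19-fold higher. Fos passed the filter only through its PVBL arrays, was well above background on 1 of 3 sham arrays, and was 1.58-fold higher with normexp.

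**Figure D4:**
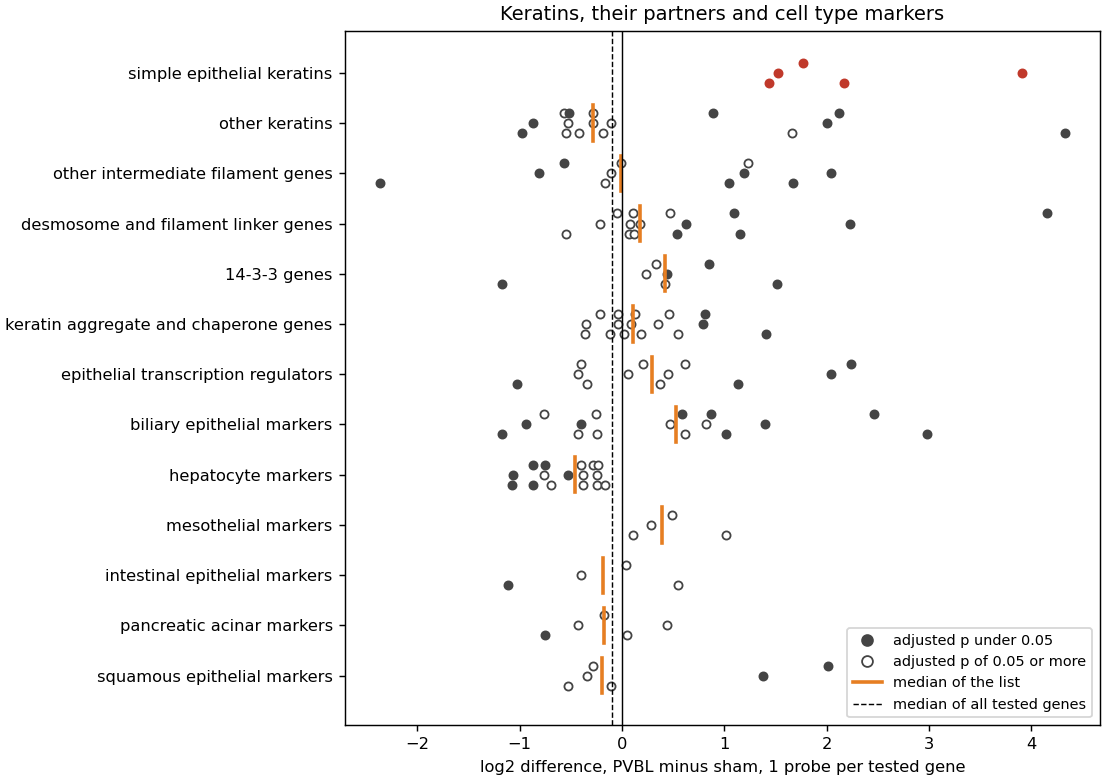
Log2 difference (PVBL minus sham) of each tested gene, 1 probe per gene, for the simple epithelial keratins (red) and 12 lists; filled points have an adjusted p under 0.05, orange bars are list medians and the dashed line the median of all tested genes at -0.10. The 5 keratins lie between 1.44 and 3.91, and no hepatocyte marker lies above 0.

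Across the 6 arrays, the named genes whose levels were most like those of 4 keratins were taken from 13581 genes by Pearson's r, as a description that rests mainly on the gap between the groups. For Krt8 they were Ywhah (r = 0.9992), Hmgb2, a chromatin protein gene (0.9989), and Ccdc18 (0.9983). For Krt18 they were Il17rb, an interleukin receptor gene (0.9994), Chka, choline kinase (0.9979), and Ugdh, UDP-glucose dehydrogenase (0.9976). For Krt19 they were Eif2ak2, the RNA-activated kinase PKR (0.9972), Fbxo45 (0.9921) and Dtnb, a dystrobrevin gene (0.9912). For Krt23 they were Nabp1 (0.9994), Drc1 (0.9992) and Cidec, a lipid droplet protein gene (0.9991). The log2 differences of these genes ran from 0.42 for Dtnb, which was not called, to 2.93 for Ccdc18.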

How the data were processed

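Total RNA of the right liver lobes was labelled with Cy3, per the labels' protocols. The deposited scanner files hold intensity values, from version 10.7.3.1 of Agilent's Feature Extraction and design 028005 (build mm9), per the file headers; the submitters' processing notes name version 9.1. The column used is the scanner software's processed signal, whose correction settings are not given in the sources used here. The deposited value table holds log2 values without a stated normalization; they matched the scanner values scaled to the 75th percentile and centred per probe (r of at least 0.9997 per array) and served as an alternative.

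Here spots marked as outliers (115 to 201 on an array) and the 3671 controls were dropped, the processed signal was put on the log2 scale, and each array's 75th percentile was subtracted. The filter kept 27909 of 55681 probes, those above the background flag on every array of either group, for limma 3.58.1 in R 4.3.3, and p-values were adjusted over all of them by Benjamini-Hochberg. SE is limma's. Symbols came from RefSeq (GRCm38.p6) accessions for 26413 probes; with several probes, the brightest tested one represented its gene. A fold against a group below background is a bound, the bright mean over the mean, per dim array, of the higher of its own signal and the lowest signal well above background. The fit was tested on simulated data in which 50 probes changed by each of 4 amounts and 27709 did not change. It recovered 44% of the probes raised by 1 log2 unit and 82% of those raised by 2. Of probes lowered by 1 and 2 units it recovered 28% and 74%. In the data 8516 probes were called, far more than changed in the simulation, so these shares need not be those of the real fit. A gene that did not pass may still have changed. Samples were grouped by the labels' source names. The planned normexp used the median signal, since the files have no mean signal column; the number of arrays limits the precision.

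Keratins, lists and named genes (up to 3 largest called changes of each list, or its 2 brightest genes where none was called, all called keratins, and the 3 closest patterns) were chosen with earlier results of these data known; members of lists that did not pass and are named were chosen for their role. Alternatives were another background correction, 3 scalings, 2 filters, gene-level fits, a replicate block, array weights, another variance prior, the value table and leaving out each array.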

Additional observations from a re-analysis of the deposited data

How the results depend on the processing

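The calls of Krt8, Krt18, Krt19 and Krt23 held under all 18 alternatives run for each, with log2 differences of 2.02 to 2.60, 1.63 to 2.20, 1.07 to 1.95 and 3.65 to 4.34. Krt7 held under 16 of 17 and was 0.37 with normexp, where 4 keratins were called. Krt20 was 0.53 with normexp. With normexp the change of Krt7 was -0.70 relative to Krt19 and -1.83 relative to Krt8. Leaving out 1 array gave Krt7 differences of 1.30 to 1.65 and 4160 to 8496 called probes in all. The total was 8516, against 2980 with spike-in scaling, 3621 without a filter, and 4476 or 4545 with 1 probe or the mean of probes per gene, which tests fewer features. Whether the replicate numbers pair the samples was not settled. Deviations of same-numbered arrays correlated at 0.197, -0.039 and 0.231, and those of differently numbered arrays at -0.254 to 0.147. So few arrays cannot decide it. With the replicate block 7390 probes were called and Krt7 had adjusted p = 0.0133, and each keratin call was kept. In the authors' value table, whose rows had been chosen on the group difference, 7649 of 7849 probes were called. The keratin calls there are therefore no independent support. Each keratin had 1 probe, so the gene-level fits gave the same differences as the main fit. Krt7 and Krt20 lie near background, which limits their folds; for Krt20 no fit with array weights, block or other prior was made, since it did not pass the filter.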
